A study of Homo sapiens with 30 samples.

Results

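The genes that govern the G1 phase of the cell cycle were followed through 2 prostate cancer cell lines. They are the D-type cyclins CCND1, CCND2 and CCND3, the E-type cyclin CCNE1, the cyclin-dependent kinases CDK4 and CDK6, the CIP/KIP inhibitors CDKN1A (p21) and CDKN1B (p27), and the INK4 inhibitors CDKN2C (p18) and CDKN2D (p19). The members were taken by gene symbol, and all 10 were found among 23710 symbols with read counts and 23616 with FPKM, a level scaled to transcript length and sequencing depth. V16D is a castration-resistant derivative of the LNCaP line. MR49F is an LNCaP derivative that became resistant to enzalutamide in castrated mice treated with it for long, and it carries a heterozygous mutation in the ligand-binding domain of the androgen receptor. The 30 samples form 10 conditions of 3. In full fetal bovine serum (FBS), V16D and MR49F cells received vehicle or 10 µM enzalutamide, an androgen receptor antagonist, for 24 h. MR49F cells kept for 72 h in charcoal-stripped serum (CSS), which is depleted of steroids, received vehicle, 10 µM enzalutamide, 1 nM of the androgen DHT, 500 nM of the BET bromodomain inhibitor JQ-1, or JQ-1 with either of these ligands, also for 24 h. MR49F cells were maintained with 10 µM enzalutamide, and per the labels cells of both lines were then kept without it for days before the treatment or the change to CSS. The labels describe wells plated in triplicate, so p-values may measure only the spread between wells.

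In G1, growth signals raise the D-type cyclins, which bind CDK4 or CDK6 and begin to phosphorylate the retinoblastoma protein. Cyclin E with CDK2 completes that step, E2F factors are released, and the genes of DNA replication are transcribed. The INK4 proteins bind CDK4 and CDK6 and keep D-type cyclins off them, whereas p21 and p27 bind assembled cyclin-CDK complexes and chiefly inhibit CDK2. Androgen receptor signalling is known to drive this transition in prostate cancer cells. Much of the control of cyclins and of p27 acts on the protein, which RNA-seq does not see. In bulk samples a smaller share of cells in a phase and less RNA per cell cannot be told apart.

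Between 13170504 and 21154962 reads were counted on genes in the 12 FBS samples and between 982130 and 1813262 in the 18 CSS samples. Only 5.13% to 7.66% of reads were on genes in the CSS count files, against 72.97% to 77.81% in FBS. Over 12937 genes the median was 0.112 CSS reads for each FBS read, against 0.431 over 202 genes named as antisense, and which strand was counted is not given in the sources used here. The part of strand in the results on CSS counts was not tested. FBS comparisons were tested on counts with edgeR and CSS comparisons on log2(FPKM + 1) with limma, and the edgeR result on CSS counts is given where a call differs. A gene was called at a Benjamini-Hochberg adjusted p of at most 0.05, and the share of all tested genes called stands beside each count of members. All 11 luminal prostate markers averaged at least 1 FPKM in both lines, and 0 of 3 basal and 0 of 3 endothelial markers did. Of 4 neuroendocrine markers 1 did in V16D cells, 2 in MR49F cells in FBS and 3 in CSS, where ENO2 averaged 20.4 FPKM. In the same order 1, 0 and 1 of 6 stromal and 2, 2 and 1 of 4 leukocyte markers did. Replicate 1 of MR49F cells in FBS with vehicle stood apart from the other samples of its group, with a chi-square per degree of freedom of 9.87 and 11.6 against 2.25 for the remaining pair. Member calls that changed without it are given beside the results.

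On GRCh37, with the spans of GENCODE release 44 mapped to that build, CCND1 lies at chr11:69455924-69469242 and CDKN1A at chr6:36644237-36655114, both on the plus strand. CDKN2C lies at chr1:51426417-51440306 on the plus strand and CDKN2D at chr19:10677136-10679735 on the minus strand. CDK4 lies at chr12:58141510-58149796 on the minus strand. Its exons overlap those of TSPAN31, a tetraspanin gene on the opposite strand, and the longest overlap of an exon pair is 891 bases. Promoter windows of RefSeq on GRCh38.p14, from 250 bases before to 50 after a start site, were found for 8 of the 10 members and numbered 13. They are printed for CDK4, the kinase of the higher level, whose FPKM fell with JQ-1, and for the INK4 inhibitors CDKN2C and CDKN2D, which rose with it. Capitals mark the E-box CACGTG, a palindrome that MYC and related factors bind. The windows are chr12:57752261-57752560 (minus strand) for CDK4, chr1:50969995-50970294 (plus strand) for the last of the 3 CDKN2C starts along its strand, and chr19:10568930-10569229 (minus strand) for CDKN2D.
CDK4: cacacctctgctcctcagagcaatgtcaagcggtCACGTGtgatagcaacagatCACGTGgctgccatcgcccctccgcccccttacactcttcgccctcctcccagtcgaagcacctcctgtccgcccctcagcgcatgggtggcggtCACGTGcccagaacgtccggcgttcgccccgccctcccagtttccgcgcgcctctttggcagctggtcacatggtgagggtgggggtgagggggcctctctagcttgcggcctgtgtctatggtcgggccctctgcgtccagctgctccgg
CDKN2C: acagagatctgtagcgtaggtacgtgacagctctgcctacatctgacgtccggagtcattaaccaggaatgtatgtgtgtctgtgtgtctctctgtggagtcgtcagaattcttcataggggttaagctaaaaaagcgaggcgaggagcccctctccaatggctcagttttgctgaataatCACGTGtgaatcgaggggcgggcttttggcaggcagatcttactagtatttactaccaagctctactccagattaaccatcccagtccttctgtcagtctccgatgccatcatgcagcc
CDKN2D: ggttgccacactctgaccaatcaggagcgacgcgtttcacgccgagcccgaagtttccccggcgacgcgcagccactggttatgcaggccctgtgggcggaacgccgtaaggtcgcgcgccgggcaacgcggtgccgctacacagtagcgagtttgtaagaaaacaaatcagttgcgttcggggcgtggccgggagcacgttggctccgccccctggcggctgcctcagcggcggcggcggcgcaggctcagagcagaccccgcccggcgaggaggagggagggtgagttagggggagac
The E-boxes of the CDK4 window began at -216, -196 and -101 from the start site. That of the printed CDKN2C window began at -69, and another CDKN2C window held 1 at -220. The remaining CDKN2C window (chr1:50968456-50968755) and the CDKN2D window held none. With JQ-1 in CSS the main CDKN2C transcript went from 5.43 to 11.2 FPKM and the minor from 0.711 to 0.577 FPKM. Which start each of them uses was not tested. An E-box of a CDK6 window, not printed, began at 30. CACGTG was found in 4 of the 13 member windows and in 7.26% of 35116 promoters. Searched on both strands, the E2F-type letters TTTCCCGC and TTTGGCGC and the androgen receptor half-site TGTTCT were in 0 of the 13 windows and in 1.63%, 0.652% and 14.8% of all promoters.

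CCND1 was the D-type cyclin with the highest level in every condition. It was at 63.7, 64.5 and 63.5 FPKM in V16D cells with vehicle and at 72.1, 73.1 and 74.6 FPKM in MR49F cells with vehicle in FBS. CCND2 was at or near 0, with 0 to 4 reads per FBS library and 0 to 1 per CSS library, and was tested in no comparison. CDK4 made up between 96.3% and 99.7% of the summed CDK4 and CDK6 FPKM in each of the 30 samples. CDK6 reached 1.94 ± 0.0464 FPKM (SD, n = 3) in V16D cells with vehicle and stayed below 0.5 FPKM in all MR49F samples, so that it was tested in FBS only. Among the inhibitors CDKN1A had the highest level in every MR49F condition. In V16D cells with vehicle CDKN2C did, at 25.9 ± 1.54 FPKM.

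**Figure D1:**
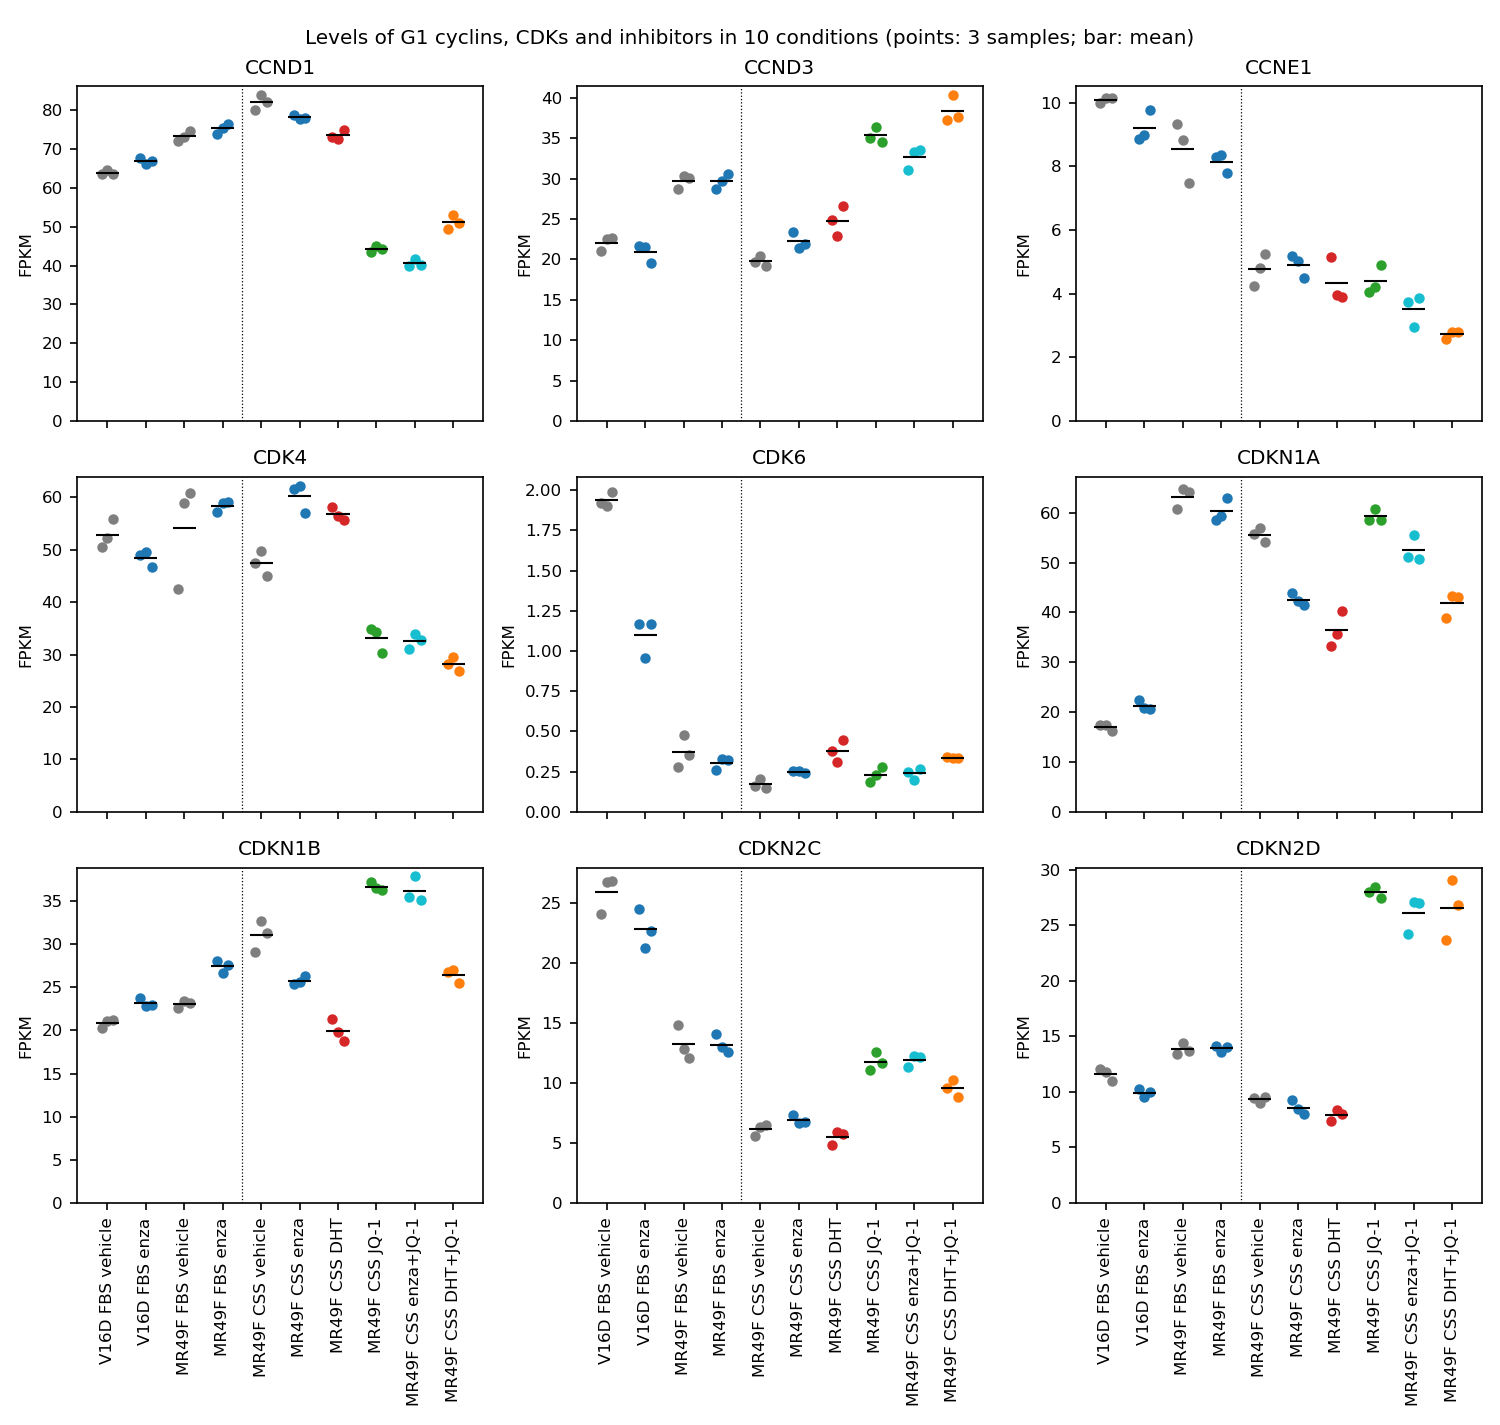
FPKM of 9 members (y axis, from 0) in the 10 conditions (x axis), with a point for each sample, a bar at the mean of 3 and a dotted line between FBS and CSS samples. CDKN1A lies between 16.2 and 22.4 FPKM in V16D samples and at 33.2 FPKM or above in MR49F samples, and the CDKN2D mean goes from 9.32 to 28.0 FPKM with JQ-1 in CSS.

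Most members, like most genes, differed between the resistant and the parental line. In FBS with vehicle, 5 of the 9 members tested were higher and 3 lower in MR49F than in V16D cells, where 63.7% of all genes were called, 31.9% higher and 31.8% lower. CDKN1A, the p53 target that restrains CDK2, was at 60.7, 64.7 and 64.2 FPKM in MR49F and 17.3, 17.5 and 16.2 FPKM in V16D cells. Its mean was 3.72-fold higher, with no overlap between the lines and a log2 fold change on counts of 1.90 (SE 0.0515, edgeR adjusted p = 5.51e-11). CDK6 went the other way, at 0.282, 0.478 and 0.355 FPKM in MR49F and 1.92, 1.90 and 1.99 FPKM in V16D cells (-2.35, SE 0.123, edgeR adjusted p = 2.06e-08). CDKN2C was at 14.8, 12.8 and 12.1 FPKM in MR49F and 24.1, 26.7 and 26.8 FPKM in V16D cells (-0.96, SE 0.0810, edgeR adjusted p = 9.79e-07), again without overlap.

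The other members moved less between the lines. CCND3 (0.43), CDKN2D (0.27), CCND1 (0.20) and CDKN1B (0.16) were higher and CCNE1 (-0.25) lower in MR49F cells. The CCNE1 call was lost when any sample other than MR49F replicate 1 was left out (edgeR adjusted p 0.0622 to 0.127), that of CDKN1B without V16D replicate 1 or 3 (0.0507 to 0.0776) and that of CDKN2D without V16D replicate 3 (0.0576). CDK4 was at 42.5, 59.0 and 60.7 FPKM in MR49F cells, with the low value in the library that stood apart, and at 50.5, 52.2 and 55.8 FPKM in V16D cells. It was not called (0.039, edgeR adjusted p = 0.737), whereas without that library CDK4 was higher in MR49F cells by 0.17 (edgeR adjusted p = 6.97e-05) and 9 of 9 members were called, where 68.6% of all genes were.

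The other genes of the pathway that were called were mostly lower in MR49F cells. Of all genes 63.7% were called, 31.8% lower and 31.9% higher. Of 25 other G1/S genes 14 were lower and 2 higher, and of 14 S phase genes 9 were lower and 1 higher. Of the G1/S list E2F7, a repressor of E2F targets (-0.79), and the pocket protein gene RBL1 (-0.73) changed the most. TFDP1, which encodes a partner of E2F (0.66), and the cyclin E partner CDK2 (-0.59) came next. Of 10 other p53 targets 3 were higher and 2 lower, with a median of 0.11 against -0.0049 over all genes. Without the library that stood apart 5 and 3 p53 targets, 3 and 14 other G1/S genes and 1 and 10 S phase genes were higher and lower. In that fit 68.6% of all genes were called.

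Enzalutamide in FBS lowered CDK6 the most of the members in V16D cells and raised both CIP/KIP inhibitors. Of the 9 tested, 2 were higher and 6 lower, where 37.5% of all genes were called, 18.2% higher and 19.3% lower. CDK6 went from 1.92, 1.90 and 1.99 FPKM with vehicle to 1.17, 0.957 and 1.17 FPKM with enzalutamide (-0.84, SE 0.0642, edgeR adjusted p = 5.03e-34). CDKN1A went from 17.3, 17.5 and 16.2 to 22.4, 20.8 and 20.6 FPKM (0.29, SE 0.0456, edgeR adjusted p = 6.26e-09). The groups did not overlap for either gene.

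CDKN1B also rose (0.12), and CDKN2D (-0.26), CDKN2C (-0.22), CCNE1 (-0.17), CDK4 (-0.16) and CCND3 (-0.11) fell in V16D cells. CCND1, at 67.9, 66.3 and 66.9 FPKM with the drug, was not called (0.036, edgeR adjusted p = 0.262). On log2(FPKM + 1) limma called 4 members, CDK6, CDKN1A and CDKN2D in the same directions and CDKN1B (0.15), where 30.4% of all genes were called. The calls of CCNE1 (edgeR adjusted p 0.0504 to 0.128), CCND3 (0.126 to 0.215) and CDKN1B (0.056 to 0.0622) were each lost without 2 or 3 of the 6 samples, which were enzalutamide replicate 1 or 2 or vehicle replicate 3, enzalutamide replicate 3 or vehicle replicate 2 or 3, and replicate 1 of either group.

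In MR49F cells in FBS the member called with enzalutamide was CDKN1B, where 8.48% of all genes were called. Its level was 22.6, 23.4 and 23.2 FPKM with vehicle and 28.1, 26.7 and 27.6 FPKM with the drug, without overlap (0.20, SE 0.0470, edgeR adjusted p = 0.0255). The call was lost without any of the enzalutamide samples or vehicle replicate 2 (edgeR adjusted p 0.0772 to 0.144). Without vehicle replicate 1 CDKN1B was at 0.21 (edgeR adjusted p = 0.000258), and CDK6 (-0.49) and CDKN1A (-0.12) were called lower, where 17.8% of all genes were called. CDKN1A was at 58.5, 59.3 and 63.0 FPKM with enzalutamide and 60.7, 64.7 and 64.2 FPKM with vehicle, and these groups overlapped (-0.11, edgeR adjusted p = 0.162). The other members not called were CDK6 (-0.34), CCNE1 (-0.11), CDK4 (0.068), CDKN2C (-0.065), CCND3 (-0.058), CDKN2D (-0.044) and CCND1 (-0.0019).

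The CDKN1A response differed between the lines by -0.40 on the log2 scale (SE 0.0639, edgeR adjusted p = 0.000257), the single member of 9 called, where 6.95% of all genes were. CDK6 had a difference of 0.49 that was not called (edgeR adjusted p = 0.129). Without the library that stood apart the CDKN1A difference was -0.40 and CDKN2C was called as well (0.24, edgeR adjusted p = 0.0238), where 10.4% of all genes were, and without MR49F vehicle replicate 2 CDK6 was (0.74, edgeR adjusted p = 0.0135). The differences of the other members, none called, ran from -0.046 (CCND1) to 0.22 (CDK4).

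In CSS, enzalutamide lowered both CIP/KIP inhibitors of MR49F cells and raised CDK4 and CCND3. These were 4 of the 8 members tested, where 38.7% of all genes were called, 19.3% higher and 19.3% lower. CDKN1A went from 55.7, 56.8 and 54.0 FPKM with vehicle to 43.9, 42.2 and 41.6 FPKM (-0.38, SE 0.0420, limma adjusted p = 0.000173). CDKN1B went from 29.1, 32.7 and 31.3 to 25.4, 25.6 and 26.4 FPKM (-0.26, SE 0.0497, limma adjusted p = 0.00354), and CDK4 went from 47.6, 49.8 and 45.0 to 61.6, 62.1 and 56.9 FPKM (0.34, SE 0.0527, limma adjusted p = 0.00116). CCND3 went from 19.7, 20.4 and 19.2 to 23.4, 21.4 and 21.9 FPKM (0.16, SE 0.0475, limma adjusted p = 0.0247), and its call was lost without enzalutamide replicate 1 or vehicle replicate 1 or 3 (limma adjusted p 0.067 to 0.0764). None of these 4 overlapped between the groups. On counts edgeR called CDKN1A alone among the members (-0.43, SE 0.117, edgeR adjusted p = 0.0313), where 7.26% of all genes were called, with CDKN1B at -0.37, CCND3 at 0.43 and CDK4 at 0.0021 (SE 0.103) there. On FPKM CDKN2C (0.15), CDKN2D (-0.11), CCND1 (-0.069) and CCNE1 (0.035) were not called.

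With DHT in CSS, 2 of the 8 members were higher and 4 lower, where 72.1% of all genes were called, 28.9% higher and 43.2% lower. The vehicle samples are those of the enzalutamide comparison. CDKN1B went to 21.3, 19.9 and 18.7 FPKM, a change of -35.7% in the mean (-0.61, SE 0.0589, limma adjusted p = 2.17e-05), and CDKN1A to 33.2, 35.7 and 40.3 FPKM, a change of -34.4% (-0.60, SE 0.0654, limma adjusted p = 4.72e-05). CCND3 rose to 24.8, 22.9 and 26.6 FPKM (0.31, SE 0.0556, limma adjusted p = 0.000963) and CDK4 to 58.2, 56.4 and 55.7 FPKM (0.26, SE 0.0452, limma adjusted p = 0.000914). CCND1, at 73.2, 72.7 and 74.9 FPKM against 80.1, 84.1 and 82.3 FPKM with vehicle, was lower (-0.16, limma adjusted p = 0.00443), as was CDKN2D (-0.22). All 6 were without overlap between DHT and vehicle.

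The smaller of these DHT changes depended on scaling. Division by size factors moved the median of all genes from -0.083 to 0.039 and the share of called genes that were higher from 40.1% to 55.5%. CCND1 (-0.022, limma adjusted p = 0.58) and CDKN2D (-0.093, limma adjusted p = 0.157) were then not called. On counts edgeR called CCND3 (0.56), CDKN1A (-0.72) and CDKN1B (-0.65), where 37.5% of all genes were called and 51.8% of these were higher, and CDK4 was at -0.024. CCNE1 was at 4.26, 4.80 and 5.25 FPKM with vehicle and 5.14, 3.97 and 3.88 FPKM with DHT and was called only without DHT replicate 1 (-0.22, limma adjusted p = 0.0309). CDKN2C was not called either (-0.14, limma adjusted p = 0.135). CDK6, with 0 to 9 reads per CSS library, was below the filter of 1 FPKM and was not tested there. It was at 0.172 ± 0.0284 FPKM with vehicle, 0.250 ± 0.0047 with enzalutamide and 0.379 ± 0.0663 with DHT (SD, n = 3). Neither ligand overlapped vehicle.

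**Figure D2:**
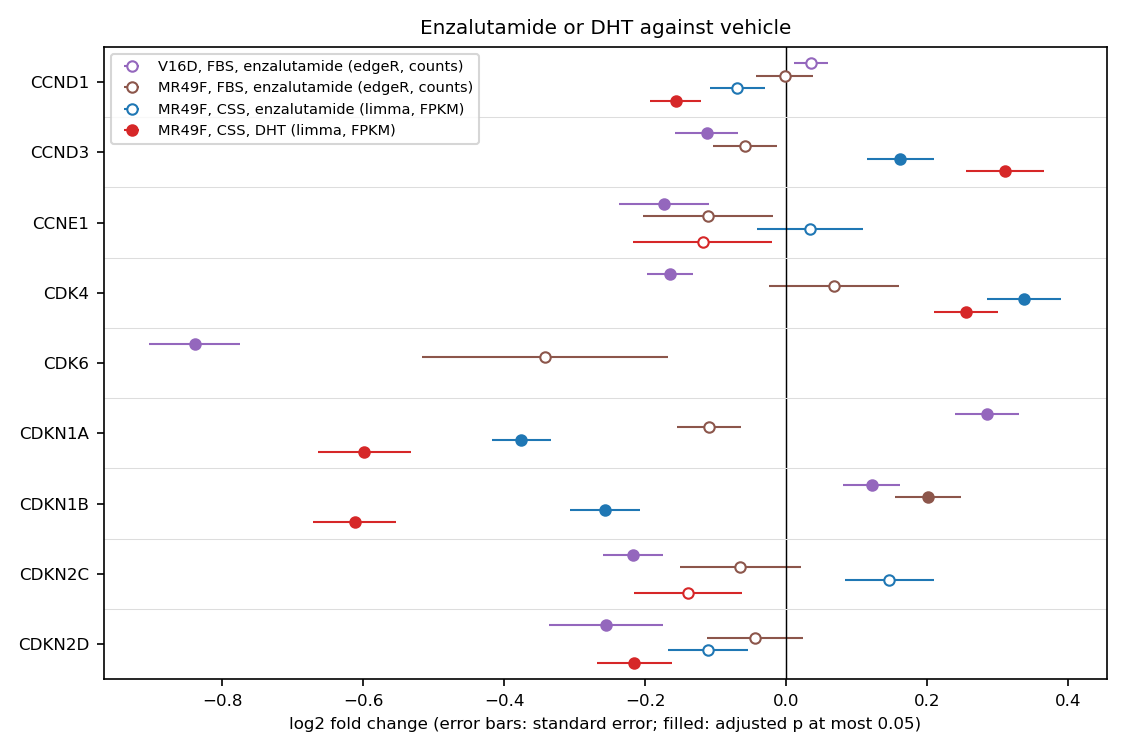
Log2 fold change against vehicle (x axis) of each member (y axis) with enzalutamide in V16D and MR49F cells in FBS and with enzalutamide or DHT in MR49F cells in CSS, with standard errors and called members filled. CDKN1A lies at 0.29 in V16D cells in FBS and at -0.38 and -0.60 in MR49F cells in CSS.

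Compared directly at these doses in CSS, DHT gave lower CDKN1B (-0.35, SE 0.0519, limma adjusted p = 0.000391), CDKN2C (-0.29, limma adjusted p = 0.0071) and CDKN1A (-0.22, limma adjusted p = 0.0174) than enzalutamide. These were 3 of 8 members, where 57.4% of all genes were called and 36.5% were lower. On counts edgeR called 0 of the 8 (1 at an unadjusted p under 0.05, and 0 by DESeq2), where 19.4% of all genes were called. The share of called genes that were higher with DHT was 36.4%, 55.8% after scaling and 53% on counts. After scaling CDKN1A was not called (-0.12, limma adjusted p = 0.147) and CCND3 was (0.25, limma adjusted p = 0.00498). The CDKN1A call was also lost without DHT replicate 1 or 2 or enzalutamide replicate 1 (limma adjusted p 0.0504 to 0.0533). CCND3 (0.15), CCNE1 (-0.15), CDKN2D (-0.10), CCND1 (-0.087) and CDK4 (-0.083) were not called on unscaled FPKM.

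The enzalutamide effect on MR49F cells differed between CSS and FBS for CDKN1B (-0.50, SE 0.0599, limma adjusted p = 0.00012) and CDKN1A (-0.31, SE 0.0574, limma adjusted p = 0.00213). These were 2 of 8 members, where 34.1% of all genes were called, 19.1% lower and 14.9% higher in CSS. CDKN1B was called higher with the drug in FBS and lower in CSS. Without the FBS vehicle library that stood apart CCND3 (0.19) and CDK4 (0.37) were called too, where 36.0% of all genes were, and CCND3 also without CSS enzalutamide replicate 2 (0.19). The share of called genes higher in CSS was 43.8%, and 56.7% after scaling, under which CCND3 was called (0.23). The members not called were CDK4 (0.21), CDKN2C (0.15), CCND3 (0.17), CCNE1 (0.092), CDKN2D (-0.12) and CCND1 (-0.11). The sera were separate experiments, so serum and experiment cannot be told apart here.

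JQ-1 in CSS moved the D-type cyclins in opposite directions and raised the INK4 inhibitors. Of the 8 members tested 5 were higher and 2 lower than with vehicle, where 75.1% of all genes were called, 32.5% higher and 42.6% lower. Division by size factors moved the median of all genes from -0.060 to 0.023. The share of called genes that were higher went from 43.2% to 52.7%. CCND1 went from 80.1, 84.1 and 82.3 FPKM to 43.6, 45.1 and 44.2 FPKM (-0.88, SE 0.0326, limma adjusted p = 1.12e-07). CCND3 went from 19.7, 20.4 and 19.2 to 35.0, 36.4 and 34.6 FPKM (0.81, SE 0.0368, limma adjusted p = 3.12e-07). The ratio of CCND3 to CCND1 FPKM was 0.240 ± 0.00620 with vehicle and 0.797 ± 0.0137 with JQ-1 (SD, n = 3). The D-type cyclins summed to 101.9 ± 2.34 and 79.6 ± 1.59 FPKM, and the CCND1 share of that sum was 80.6% and 55.6%.

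CDKN2D, the p19 gene, went from 9.44, 8.98 and 9.55 FPKM to 28.0, 28.4 and 27.5 FPKM (1.49, SE 0.0370, limma adjusted p = 1.67e-08). CDKN2C went from 5.58, 6.34 and 6.50 to 11.1, 12.5 and 11.6 FPKM (0.84, SE 0.0634, limma adjusted p = 5.2e-06). On counts edgeR called both, at 1.92 and 0.95, where 46.6% of all genes were called. CDKN2B, the p15 gene of the same family, went from 0.946 ± 0.0949 to 2.65 ± 0.234 FPKM (0.91).

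Of the CIP/KIP inhibitors CDKN1B rose with JQ-1, to 37.2, 36.5 and 36.3 FPKM (0.23, SE 0.0446, limma adjusted p = 0.00137). CDKN1A, at 58.5, 60.7 and 58.6 FPKM, was called at 0.093 (limma adjusted p = 0.0331). That call was lost without any sample except vehicle replicate 2 (limma adjusted p 0.055 to 0.132), in a fit of all 18 CSS samples (0.158) and on counts (0.12, edgeR adjusted p = 0.391). CCNE1, at 4.07, 4.20 and 4.89 FPKM, was not called (-0.10, limma adjusted p = 0.288).

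CDK4 FPKM went from 47.6, 49.8 and 45.0 with vehicle to 34.9, 34.3 and 30.3 with JQ-1 (-0.51, SE 0.0598, limma adjusted p = 7.84e-05). The deposited counts did not show this, at 246, 207 and 205 reads with vehicle and 279, 246 and 210 reads with JQ-1 (-0.058, SE 0.101, edgeR adjusted p = 0.665). TSPAN31, whose exons overlap those of CDK4, was at 7.63 ± 0.455 FPKM with vehicle and 10.7 ± 0.754 FPKM with JQ-1. CDK4 had 0.140 CSS reads for each FBS read. The part of the overlapping gene and of read strand in the CDK4 counts was not tested.

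**Figure D3:**
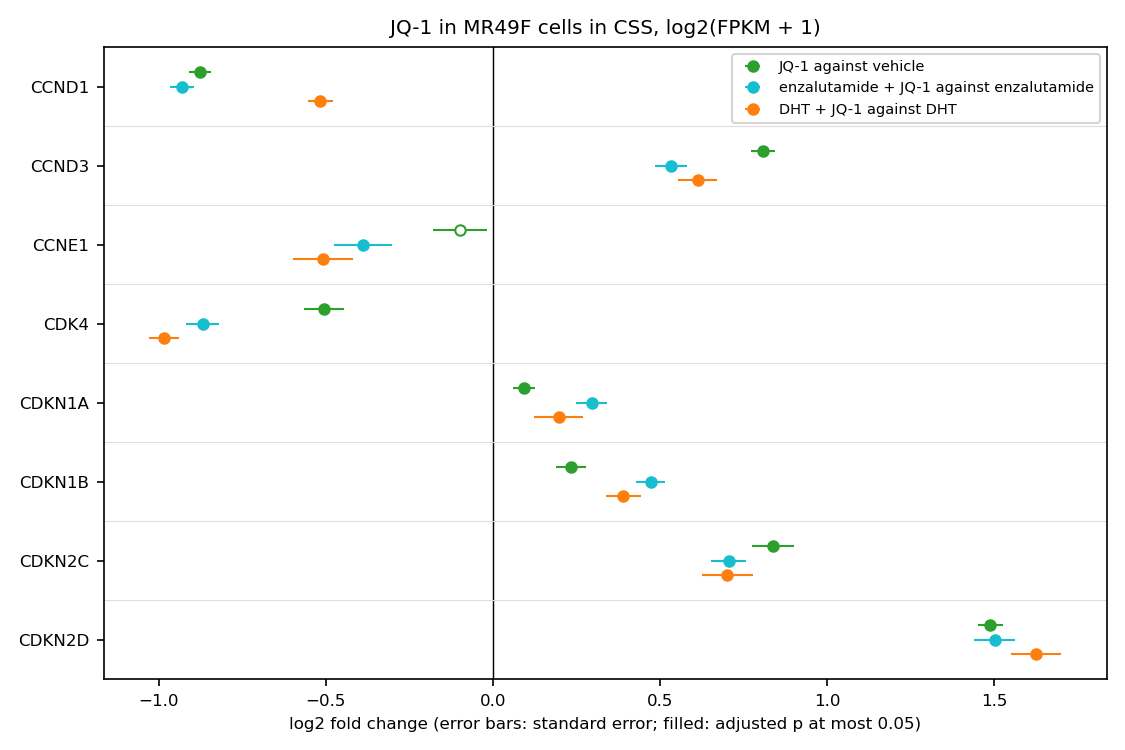
Log2 fold change on log2(FPKM + 1) (x axis) of the 8 members tested in CSS (y axis) for JQ-1 added to vehicle, to enzalutamide and to DHT, with standard errors and called members filled. The 4 inhibitors and CCND3 lie above 0 and CCND1 and CDK4 below 0 in all 3 comparisons.

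Added to enzalutamide, JQ-1 changed 8 of 8 members, 5 higher and 3 lower, where 75.7% of all genes were called, 31.2% higher and 44.4% lower. The share of called genes that were higher was 41.3%, and 51.0% after scaling. CDKN2D went from 9.23, 8.49 and 8.0 FPKM to 24.2, 27.1 and 27.0 FPKM (1.50, SE 0.0627, limma adjusted p = 1.03e-07), and CCND1 from 78.9, 77.8 and 78.0 to 39.8, 41.8 and 40.1 FPKM (-0.93, SE 0.0362, limma adjusted p = 7.5e-08). CDK4 went to 31.0, 33.9 and 32.7 FPKM, a change of -46.0% in the mean (-0.87, SE 0.0493, limma adjusted p = 5.81e-07), and was not called on counts (-0.12, edgeR adjusted p = 0.352), where 45.1% of all genes were. CCNE1, the cyclin that activates CDK2, went to 3.74, 2.96 and 3.85 FPKM (-0.39, SE 0.0867, limma adjusted p = 0.00288) and was not called on counts (-0.35, edgeR adjusted p = 0.414). CDKN1A went to 51.2, 55.6 and 50.7 FPKM (0.30) and CDKN1B to 35.5, 37.9 and 35.1 FPKM (0.47), each above every sample with enzalutamide alone. CDKN2C (0.71) and CCND3 (0.53) were also higher.

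Added to DHT, JQ-1 also changed 8 of 8 members, 5 higher and 3 lower, where 78.8% of all genes were called, 35.5% higher and 43.3% lower. The share of called genes that were higher was 45.0%, and 50.7% after scaling. CDK4 went from 58.2, 56.4 and 55.7 FPKM to 28.3, 29.6 and 26.8 FPKM, a change of -50.3% in the mean (-0.98, SE 0.0438, limma adjusted p = 2.54e-07). On counts the CDK4 change was called and smaller (-0.28, edgeR adjusted p = 0.0365), where 54.7% of all genes were called. CDKN2D went from 7.34, 8.34 and 8.02 to 23.7, 29.1 and 26.8 FPKM (1.63, SE 0.0760, limma adjusted p = 3.29e-07), and CCND1 to 49.4, 53 and 51.1 FPKM, a change of -30.5% (-0.52, SE 0.0378, limma adjusted p = 3.91e-06).

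CCNE1 with DHT and JQ-1 was at 2.57, 2.81 and 2.81 FPKM, the lowest mean of this cyclin in the 10 conditions (-0.51, SE 0.0897, limma adjusted p = 0.000867), and was not called on counts (-0.63, edgeR adjusted p = 0.204). CDKN1B went back up to 26.8, 27.1 and 25.5 FPKM (0.39), below all vehicle samples. CDKN2C (0.70) and CCND3 (0.61) were higher as well. CDKN1A, at 39.0, 43.3 and 43.2 FPKM, overlapped DHT alone and was called at 0.20 (limma adjusted p = 0.0354), which was lost without DHT replicate 1 or 2 or DHT with JQ-1 replicate 2 or 3 (limma adjusted p 0.0902 to 0.108) and without a filter on low values (0.0742).

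The effect of each ligand was then compared with and without JQ-1. For enzalutamide 4 of 8 members differed, where 19.2% of all genes were called. The enzalutamide effect was lower under JQ-1 for CDK4 (-0.36, SE 0.0829, limma adjusted p = 0.01) and CCND3 (-0.28, limma adjusted p = 0.00814), which had risen with the drug alone. It was higher for CDKN1B (0.24, limma adjusted p = 0.0185) and CDKN1A (0.20, limma adjusted p = 0.0265), which had fallen. The CDKN1A call was lost without any of 6 of the 12 samples (limma adjusted p 0.0538 to 0.0618), which were vehicle replicates 1 and 2, JQ-1 replicates 1 and 3 and replicate 2 of enzalutamide and of enzalutamide with JQ-1, and in a fit of all 18 CSS samples (0.097).

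For DHT 4 of 8 members differed, where 48.0% of all genes were called. The DHT effect was lower under JQ-1 for CDK4 (-0.48, SE 0.0791, limma adjusted p = 0.00039), CCNE1 (-0.41, limma adjusted p = 0.0232) and CCND3 (-0.19, limma adjusted p = 0.0413). It was higher for CCND1 (0.36, SE 0.0456, limma adjusted p = 5.43e-05), whose levels were 43.6, 45.1 and 44.2 FPKM with JQ-1 and 49.4, 53 and 51.1 FPKM with DHT and JQ-1. The CCND3 call was lost without any of 8 of the 12 samples (limma adjusted p 0.0617 to 0.0923), the 4 that kept it being replicate 2 of vehicle, DHT and DHT with JQ-1 and replicate 3 of JQ-1, and that of CCNE1 without vehicle replicate 1, DHT with JQ-1 replicate 1 or JQ-1 replicate 3 (0.0507 to 0.0583). That of CCND3 was also lost without a filter on low values (limma adjusted p = 0.0613). On counts edgeR called 0 members for the enzalutamide and 0 for the DHT difference (1 and 2 at an unadjusted p under 0.05), and DESeq2 called 0 and 0, where edgeR called 0.895% and 12.3% of all genes. The enzalutamide differences on counts were -0.056 for CDK4, -0.35 for CCND3, 0.37 for CDKN1B and 0.35 for CDKN1A. The DHT differences on counts were -0.22 for CDK4, -0.88 for CCNE1, -0.20 for CCND3 and 0.27 for CCND1. On FPKM CCNE1 (-0.29), CDKN2C (-0.13) and CCND1 (-0.055) had enzalutamide differences, and CDKN1B (0.16), CDKN2C (-0.14) and CDKN1A (0.10) DHT differences, that were not called. CDKN2D had differences of 0.013 (SE 0.0751) and 0.14 (SE 0.0905), neither called.

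**Figure D4:**
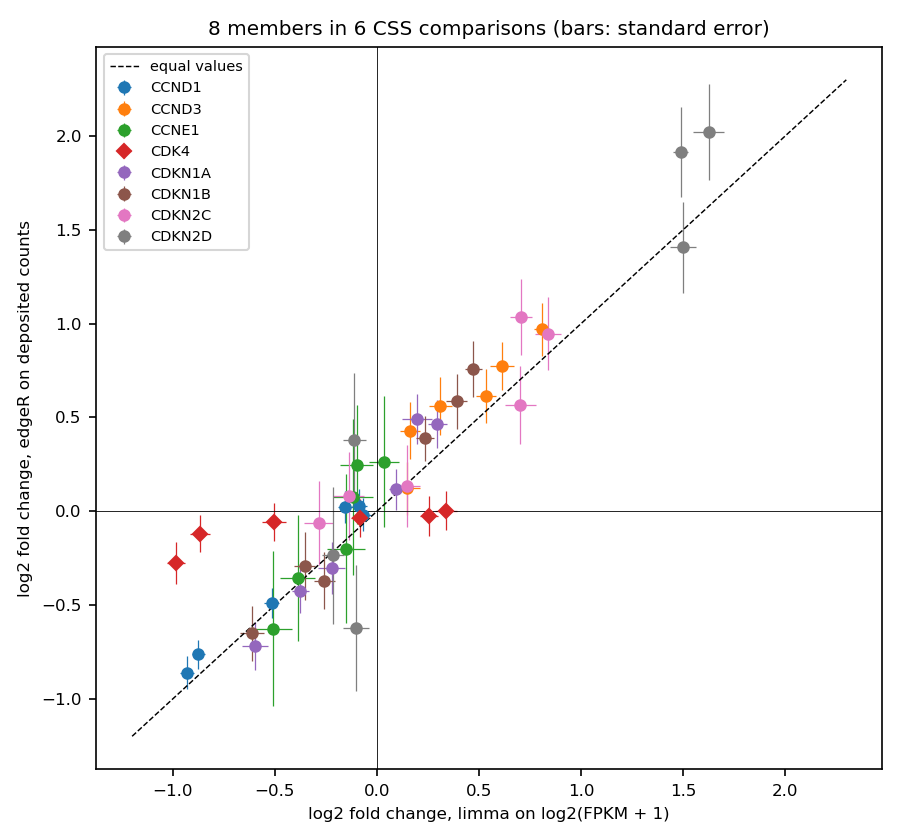
Log2 fold change of 8 members in 6 CSS comparisons from FPKM (x axis, limma) against that from the deposited counts (y axis, edgeR), with standard errors and a dashed line of equal values. CDK4 (diamonds) spans -0.98 to 0.34 on FPKM and -0.28 to 0.0021 on counts.

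The mRNA level of CDKN2C and CDKN2D relative to that of their kinases can be read from FPKM, which are per length of transcript. It gives no ratio of the proteins, and CDKN2B was not in the sum. CDKN2C plus CDKN2D over CDK4 plus CDK6 was 0.326 ± 0.0265 with vehicle in CSS, 0.256 ± 0.0122 with enzalutamide and 0.235 ± 0.0230 with DHT. It was 1.19 ± 0.0835 with JQ-1, 1.16 ± 0.0250 with enzalutamide and JQ-1 and 1.26 ± 0.0875 with DHT and JQ-1 (SD, n = 3). The ratio was above 1 in all 9 JQ-1 samples and below 1 in the other 21 samples. CDK4 counts gave smaller changes than its FPKM, so the size of this shift depends on the unit. The 4 inhibitors summed to 102.0 ± 2.58 FPKM with vehicle in CSS, 69.8 ± 3.03 with DHT and 135.7 ± 2.19 with JQ-1. In FBS the CDKN1A share of that sum was 22.6% in V16D and 55.8% in MR49F cells with vehicle.

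The genes of DNA replication, which E2F factors activate, rose with both ligands in CSS. Of 14 S phase genes 14 were higher with enzalutamide (median 0.84 against -0.013 over all genes) and 14 with DHT (median 1.10 against -0.083). Of all genes 19.3% and 28.9% were higher. On counts edgeR called 12 and 12 of the 14 higher, where 488 of 11131 and 2134 of 11004 genes were. In either direction 7.26% and 37.5% of all genes were called there. CDC6, which helps load the replicative helicase, was at 5.36 ± 0.544 FPKM with vehicle, 14.8 ± 0.319 with enzalutamide and 23.8 ± 0.241 with DHT. Of the other G1/S genes 13 rose and 2 fell of 23 tested with enzalutamide, and 13 rose and 7 fell of 24 with DHT. Of all genes 38.7% and 72.1% were called. The phosphatase gene CDC25A (0.87 and 1.41) and E2F1 (0.70 and 1.07) were among the G1/S genes that rose. Called by edgeR on counts were 2 higher and 0 lower of 21 tested with enzalutamide and 4 and 2 of 22 with DHT. Of 10 mitosis genes 10 and 8 rose, and 2 and 6 on counts. Of 9 p53 targets tested 1 rose and 0 fell with enzalutamide, and 0 rose and 7 fell with DHT (median -0.39), where 43.2% of all genes were lower. The edgeR fit on counts called 0 of 8 with enzalutamide (0 at an unadjusted p under 0.05) and 1 of 8 lower with DHT.

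In FBS the S phase genes were lower with enzalutamide. In V16D cells 12 of 14 fell (median -0.23), where 19.3% of all genes were lower. On FPKM 10 did, where 1581 of 12497 genes were lower and 30.4% were called in either direction. In MR49F cells 8 fell on counts (median -0.20), where 4.62% of all genes were lower. Without the library that stood apart 11 fell, where 17.8% of all genes were called in either direction. On FPKM 0 were called (9 at an unadjusted p under 0.05), where limma called 4.60% of all genes. RRM2, a ribonucleotide reductase subunit, changed by -0.41 in V16D cells and the helicase subunit MCM5 by -0.31 in MR49F cells. The drug effect on MR49F cells was higher in CSS than in FBS for 13 of 14 S phase genes (median difference 0.99), where 14.9% of all genes were. Between the lines in FBS a difference in the drug effect was called for 1 of the 14, RRM2 (0.19), where 6.95% of all genes were.

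JQ-1 lowered the S phase genes. With JQ-1 alone 12 of 14 fell and 1 rose (median -0.59 against -0.06 over all genes). Added to enzalutamide 14 fell (median -1.50) and added to DHT 14 fell (median -1.72). Of all genes 42.6%, 44.4% and 43.3% were lower in these comparisons. Called lower by edgeR on counts were 9 of 13, 13 of 14 and 14 of 14 S phase genes. There 46.6%, 45.1% and 54.7% of all genes were called in either direction. MCM5 was at 16.6 ± 1.35 FPKM with enzalutamide and 2.05 ± 0.146 with JQ-1 added, and at 21.6 ± 0.394 with DHT and 1.84 ± 0.135 with JQ-1 added. Of the other G1/S genes 20 fell and 4 rose when JQ-1 was added to enzalutamide, where 75.7% of all genes were called. When it was added to DHT 20 fell and 3 rose, where 78.8% of all genes were called. On counts 11 and 16 of 22 and 23 tested G1/S genes fell. CDC25A (-2.04 and -2.32) and E2F1 (-1.34 and -1.62) fell, and CDKN2B rose (1.37 and 1.55).

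Mitosis genes did not move as a block with JQ-1, with 5 of 10 higher and 1 lower for JQ-1 alone, 3 and 4 when added to enzalutamide and 2 and 4 when added to DHT. Of all genes 32.5%, 31.2% and 35.5% were higher and 42.6%, 44.4% and 43.3% lower in these comparisons. On counts the mitosis genes higher and lower were 4 and 0, 2 and 3, and 0 and 3, where 46.6%, 45.1% and 54.7% of all genes were called. The enzalutamide effect was lower under JQ-1 for 13 of 14 S phase genes (median difference -0.86), where 11.6% of all genes were lower. On counts it was lower for 3, where 47 of 11625 genes were lower and 0.895% were called in either direction. The DHT effect was lower for 14 (median -1.08), where 23.0% of all genes were. On counts it was for 10, where 758 of 11572 genes were lower and 12.3% were called in either direction.

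**Figure D5:**
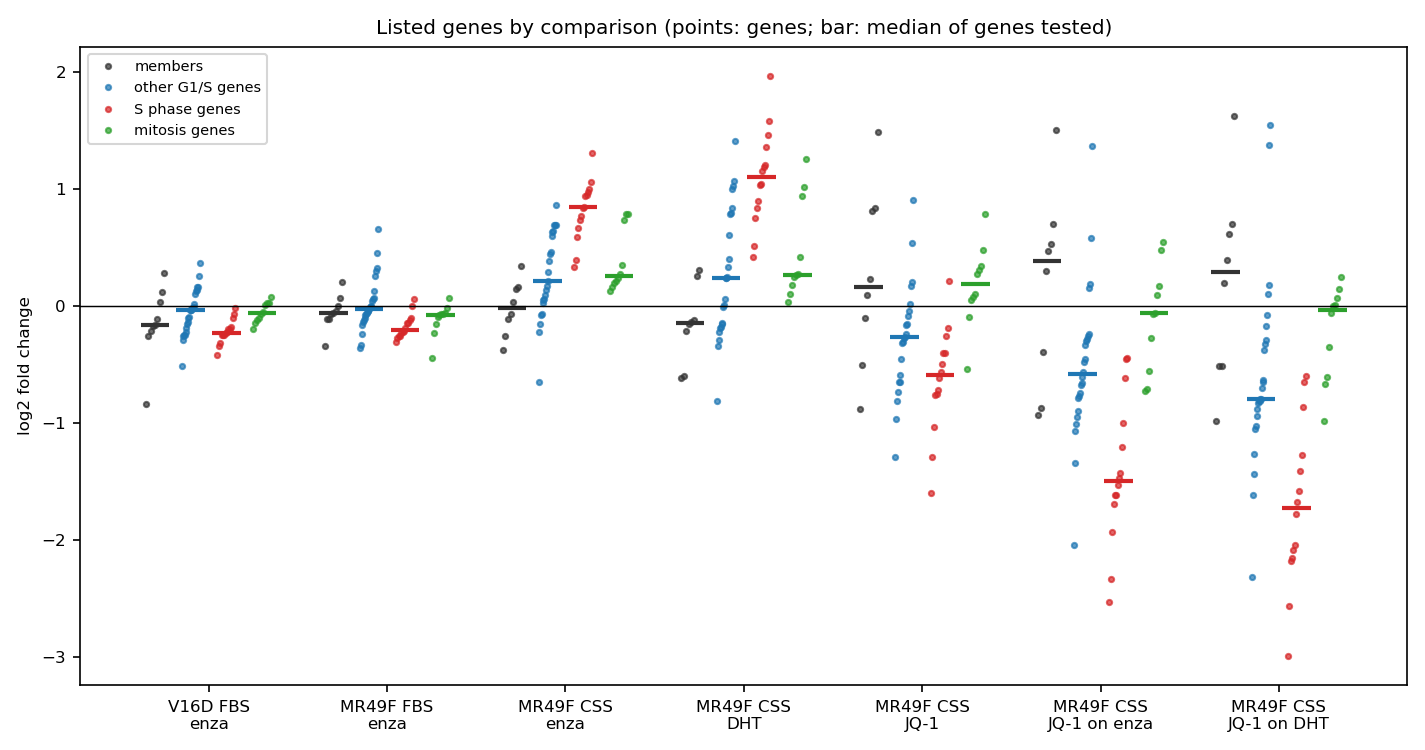
Log2 fold change (y axis) of the members, other G1/S genes, S phase genes and mitosis genes in 7 comparisons (x axis), from counts in FBS and from FPKM in CSS, with a point for each gene and a bar at the median of those tested. S phase genes have medians of 0.84 and 1.10 with enzalutamide and DHT in CSS and of -1.50 and -1.72 when JQ-1 is added to them.

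As checks of the treatment, MYC, which BET inhibitors lower in many cell types, was at 66.5 ± 1.87 FPKM with vehicle in CSS, 100.3 ± 7.27 with enzalutamide and 98.8 ± 5.63 with DHT. With JQ-1 it was at 36.4 ± 1.98 FPKM, with enzalutamide and JQ-1 at 34.9 ± 1.58 and with DHT and JQ-1 at 24.1 ± 1.72. HEXIM1, an established marker of BET inhibition, was at 13.5 ± 1.00 FPKM with vehicle and 86.9 ± 2.89 with JQ-1.

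Among 12002 genes, those whose log2(FPKM + 1) followed each member most closely over the 18 CSS samples were found by Pearson's r. For the cyclins they were SCNN1A and TANC1 (r = 0.992 and 0.987) for CCND1, SOX4 and OGDH (r = 0.981 and 0.980) for CCND3 and LRIG3 and ASXL1 (r = 0.907 and 0.899) for CCNE1. For CDK4 they were GLT25D1 and PFAS (r = 0.991 and 0.986). For the inhibitors they were HLA-C and ZNF687 (r = 0.968 and 0.966) for CDKN1A, DCBLD2 and PCMTD2 (r = 0.988 and 0.983) for CDKN1B, LRWD1 and UXS1 (r = 0.981 and 0.979) for CDKN2C and STRADA and HEXIM1 (r = 0.996 and 0.995) for CDKN2D. The samples share 6 conditions and fall into those with and without JQ-1, so these values are a description and carry no test.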

How the data were processed

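RNA of V16D and MR49F cells was sequenced from strand-specific libraries. Per the submitters' processing notes, reads were aligned to hg19 (GRCh37) with TopHat2 2.0.9. The authors deposited read counts per gene symbol made with HTSeq, without normalization and with a strand setting not given in the sources used here, and FPKM per transcript from Cufflinks 2.1.1. FPKM of transcripts with the same symbol were summed here.

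Groups came from the sample labels. FBS counts were tested with edgeR 4.0.16 (TMM, filterByExpr with a minimum count of 10 and total of 15, quasi-likelihood F-test) in R 4.3.3. CSS samples and the difference between sera were tested with limma 3.58.1 (eBayes with trend) on log2(FPKM + 1), which understates changes of low genes, after removing genes below 1 FPKM in all but 2 or fewer samples. P-values were adjusted by the Benjamini-Hochberg method over all genes tested, in fits of the groups compared. DESeq2 1.42.0, other normalizations, filters and pseudocounts, all groups in a single fit and leaving out each sample were alternatives. The scripts were tested on simulated data.

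All members tested were described in every comparison. Named from the other lists were the called genes of largest change (at most 4 G1/S, 3 S phase and 3 mitosis genes), the treatment checks MYC and HEXIM1, and the 2 genes most like each member. Members and lists were chosen with earlier results of these data known.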

Additional observations from a re-analysis of the deposited data

Results flagged for a closer look

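The 11 differences in a drug effect between groups given here were picked because each was called in the test of that difference. Their calls are therefore no further support. CDKN1A differed between the lines in FBS by -0.40, with the enzalutamide effect lower in MR49F than in V16D cells (edgeR adjusted p = 0.000257). Between CSS and FBS in MR49F cells, the enzalutamide effect differed by -0.31 for CDKN1A and -0.50 for CDKN1B.

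Between cells with and without JQ-1 the enzalutamide effect differed for CCND3 (-0.28), CDK4 (-0.36), CDKN1A (0.20) and CDKN1B (0.24), and the DHT effect for CCND1 (0.36), CCND3 (-0.19), CCNE1 (-0.41) and CDK4 (-0.48), all on log2(FPKM + 1) with limma. Both sets use the same vehicle and JQ-1 samples. As given above, the calls of CDKN1A for enzalutamide and of CCND3 and CCNE1 for DHT were lost when some single samples were left out. On the deposited counts edgeR called 0 of these 8 (1 and 2 of 8 members at an unadjusted p under 0.05, and 0 by DESeq2), where 0.895% and 12.3% of all genes were called. All 8 kept their sign there, with CDK4 at -0.056 and -0.22, CCND3 at -0.35 and -0.20, CDKN1A at 0.35, CDKN1B at 0.37, CCND1 at 0.27 and CCNE1 at -0.88.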

How the results depend on the processing

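In FBS the members called in V16D cells with enzalutamide were 8, and 4 by DESeq2 (3489 against 5276 genes in all), 4 by limma on FPKM and 5 in a fit of all FBS groups, where CCND3, CCNE1 and CDK4 were lost. DESeq2 lost CCND3, CCNE1, CDKN1B and CDKN2D. Between the lines with vehicle they were 8, and 5 by DESeq2, where CCNE1, CDKN1B and CDKN2D were lost, and for the line difference 1, and 2 by limma on FPKM, where CDK6 was added, which was below 0.5 FPKM in all MR49F samples. In MR49F cells 1181 genes were called, 575 by limma on FPKM and 2558 in a fit of all FBS groups.

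CSS counts in place of FPKM gave, by edgeR, DESeq2 and edgeR with the replicate block, 1, 0 and 1 members for enzalutamide (FPKM 4), 3, 2 and 3 for DHT (6), and 0, 0 and 0 for DHT against enzalutamide (3) and for both differences with and without JQ-1 (4 and 4). DESeq2 on counts called 4 for JQ-1 (7) and 5 for JQ-1 added to DHT (8). For DHT against enzalutamide 5 were called without a filter and 5 with all CSS groups in a fit. All genes called on counts by edgeR and DESeq2 were 808 and 366 for enzalutamide (FPKM 4709), 4122 and 2720 for DHT (8787), 5284 and 3543 for JQ-1 (9170), 2122 and 1157 for DHT against enzalutamide (6904), 4902 and 3223 for JQ-1 added to enzalutamide (9193), 5891 and 4342 for JQ-1 added to DHT (9344), and 104 and 56 and 1428 and 723 for the enzalutamide and DHT differences (2389 and 5983).

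With each sample left out in turn, members called were 0 to 3 (all genes 406 to 2533) for enzalutamide in MR49F cells in FBS, 5 to 9 between the lines, 1 to 2 for the line difference and 2 to 4 between sera, and within 1.5 times the count elsewhere.

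These signs turned, none to a call under the alternative, although CCND1 and CDK4 with DHT were called on FPKM. By limma on FPKM in MR49F cells in FBS CCND1 was at 0.0396 and CDKN2D at 0.0073. On CSS counts in the same order of tools, CDKN2D with enzalutamide was at 0.378, 0.399 and 0.379; with DHT CCND1 was at 0.0221, 0.0448 and 0.0212, CCNE1 at 0.0758, 0.0652 and 0.048, CDK4 at -0.0237, -0.0022 and -0.0246 and CDKN2C at 0.0818, 0.0905 and 0.0529. CCNE1 with JQ-1 was at 0.249, 0.257 and 0.27, CCND1 for DHT against enzalutamide at 0.0297, 0.0506 and 0.0312, and for the enzalutamide difference CDKN2C at 0.0955, 0.0727 and 0.0638 and CDKN2D at -0.504, -0.521 and -0.505. After scaling, CCND1 and CDK4 for DHT against enzalutamide were at 0.0182 and 0.0226. Leaving out samples, CCND1 ranged from -0.0157 to 0.0078, CDK4 from -0.0589 to 0.135 and CDKN2C from -0.132 to 0.0283 with enzalutamide in MR49F cells in FBS, CDK4 between the lines from -0.0255 to 0.171, CCNE1 for the line difference from -0.0384 to 0.133 and with enzalutamide in CSS from -0.0307 to 0.0943, and CDKN2D for the enzalutamide difference from -0.0311 to 0.0632. The cause was not tested.

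All groups share replicate numbers, but in no comparison did every same-numbered pair correlate above 0.1, and only between the lines with vehicle did every sample (6 of 6) correlate best with its own number. With the replicate block members called were 8, 1, 8 and 1 in FBS, and in CSS 4 for enzalutamide, 7 for DHT, where CDKN2C was added (limma adjusted p = 0.0378), and 3 for the DHT difference, where CCND3 was lost (0.0517). CSS counts are few per gene and their strand setting is not given in the sources used here, which limits what they can show.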
